A study of Mus musculus with 10 samples.

Results

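Ependymal cells line the walls of the brain ventricles, and the paraventricular nucleus of the thalamus (PVT) borders the third ventricle at the dorsal midline. Of 20503 nuclei from the PVT and the tissue around it, 469 carried the name ependymal in the cell type column that the authors deposited, and these 469 nuclei are described here. The authors named their clusters by marker genes, with Tmem212 as the marker of ependymal cells. The nuclei came from 10 libraries of C57BL/6J mice aged 12 weeks, each made from tissue punches along the PVT pooled over several animals, with no treatment or genetic change in any library. The 4 libraries deposited first have no sex in their titles and are marked male in the deposited table of nuclei, and the 6 later libraries are titled female. They are called male replicates 1 to 4 and female replicates 1 to 6. Because each set of libraries holds a single sex, sex, set and the gene annotation used for counting cannot be told apart.

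Ependymal cells are epithelial glia that carry tufts of motile cilia on the surface facing the cerebrospinal fluid, and the beat of these cilia moves the fluid along the ventricle wall. The core of a motile cilium, the axoneme, is built of microtubule doublets, dynein arms that slide them, and radial spokes and a central pair that coordinate the sliding. The transcription factor Foxj1 and the RFX factors drive the genes of this machinery during multiciliation, and ependymal cells descend from the same radial glia as astrocytes, with which they are compared below.

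The depth of the ependymal nuclei differed between libraries. Ependymal nuclei numbered 35, 38, 133 and 87 in male replicates 1 to 4 and 38, 4, 35, 20, 39 and 40 in female replicates 1 to 6. Their summed unique molecular identifiers (UMIs, each standing for 1 captured RNA molecule) came to 179189, 199565, 532643 and 284218 in the male libraries. In the female libraries the sums were 202560, 5382, 146841, 222244, 378391 and 190917 UMIs. Female replicate 2, with 4 nuclei, was below the minimum of 10 nuclei and gave no sum, so comparisons of expression rest on 9 ependymal sums, 4 male and 5 female. Barcodes were shared between libraries for 46 sequences, and 3 ependymal nuclei carried such a barcode.

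The ependymal share of all nuclei was 2.67% ± 1.25 (SD, n = 10 libraries). In the male libraries it was 3.91%, 4.34%, 3.31% and 1.21%, and in the female libraries 2.75%, 0.348%, 2.89%, 1.91%, 2.41% and 3.65%. The 2 groups overlapped, with means of 3.19% ± 1.39 (n = 4) and 2.33% ± 1.13 (n = 6), and an exact permutation test of the difference gave p = 0.324 (two-sided). Without male replicate 4, the male library with the smallest share, female minus male was -1.53 percentage points (exact permutation p = 0.0476). That was the lowest p when each of the 10 libraries was left out in turn, and the highest was 0.643. How much ventricle wall each punch held is not given in the labels.

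Median UMIs per ependymal nucleus ranged from 687 to 9108.5 over the libraries, and female replicate 4 stood apart at the upper end. Its nearest neighbour among the female libraries was female replicate 1 at 3234.5. Across the series the ependymal median of 2876 UMIs was close to that of astrocytes (3006.5) and below that of neurons (11157). Within libraries the 2 types were less alike. In the male libraries ependymal medians were 4502, 1834, 3269 and 2146, against 5203, 3283, 3970 and 2891 in astrocytes. The female libraries went both ways, with 9108.5 against 1912.5 in replicate 4 and 1081.5 against 2134.5 in replicate 6. Ependymal nuclei held more mitochondrial UMIs than most types: the library medians of the deposited percentage averaged 2.93% ± 0.866 (n = 10), above the astrocyte, oligodendrocyte, microglial, fibroblast and neuronal median of the same library in 10 of 10 libraries. Only 61 of 469 ependymal nuclei (13.0%) were under 1% mitochondrial, against 57.6% of astrocytes. Male replicates 1 and 3 had the lowest medians (1.47% and 1.64%), and male replicate 2, at 3.63%, lay within the range of the female libraries (2.65% to 3.92%).

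**Figure D1:**
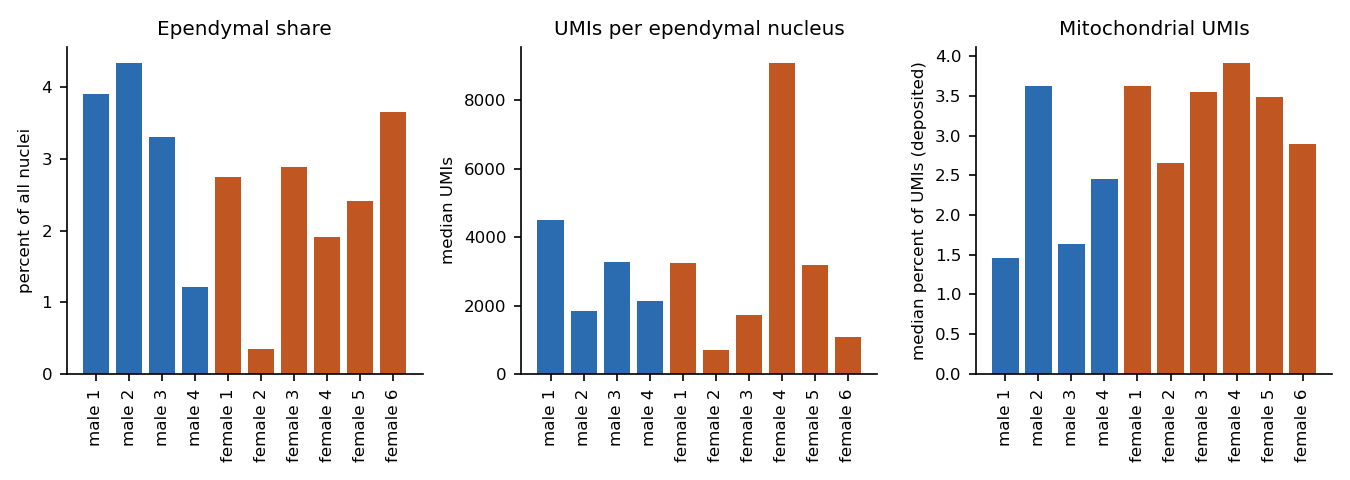
Each bar is 1 library: the ependymal share of all nuclei (percent), the median UMIs per ependymal nucleus and the median percent of mitochondrial UMIs as deposited, with male libraries in blue and female libraries in orange. Female replicate 4 reaches 9108.5 UMIs per nucleus, and male replicate 2 is the only male library with a mitochondrial median above 3%.

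Because the authors named the cluster by Tmem212, its level restates how the nuclei were chosen and is given as a description. Tmem212, which encodes a transmembrane protein and is the study's marker, had a UMI in 383 of 469 nuclei (81.7%). To compare types at 1 depth, nuclei were thinned to 1000 UMIs and shallower ones left out, which kept 384 of the 469 ependymal nuclei and 10384 of 10410 neurons. The share was then 67.2% in ependymal nuclei and between 0.597% and 2.11% in the other 7 types, a level that free RNA in the droplets can also give. In the male libraries Tmem212 was at 2561, 2393, 1057 and 1022 CPM (summed UMIs per gene, scaled to the size of the library), and in the female libraries with a sum at 2209, 2264, 2723, 3689 and 2446 CPM. Male replicates 3 and 4 were lowest, and every ependymal sum was above every sum of every other type, whose means averaged 14.8 CPM. The first 200 bases of its promoter window are shown because this gene names the cell type. They were read from RefSeq (GRCm38.p6) at chr3:27896419-27896618 on the minus strand, upstream of the annotated gene, which spans positions 27866065 to 27896391. None of its bases is in capitals, because the promoter window held no match to either motif searched (below).
Tmem212: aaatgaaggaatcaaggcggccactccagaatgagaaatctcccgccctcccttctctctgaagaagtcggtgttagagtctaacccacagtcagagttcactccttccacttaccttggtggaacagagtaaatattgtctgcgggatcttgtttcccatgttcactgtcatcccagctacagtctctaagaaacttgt

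Markers of neighbouring cell types were measured in the same nuclei. Over all ependymal nuclei, pooled without further scaling, the list of ependymal markers summed to 5396 CPM (UMIs of the list scaled to the depth of the pool), and the list of neuronal markers to 2983, astrocyte markers to 759, oligodendrocyte markers to 234, microglial markers to 81.1 and endothelial markers to 8.11. The neuronal list was highest in male replicates 4 (5640 CPM) and 3 (4840 CPM). For choroid plexus, the secretory epithelium that borders the ependyma, the list came to 147 CPM, of which 88.8 was the folate receptor gene Folr1. The list was next highest in neurons (70.9 CPM), and Folr1 had a UMI in 22.2% of ependymal nuclei and at most 0.559% of any other type. Among other genes of choroid plexus, Kl had no UMI in any ependymal nucleus and Kcne2 had 1. Ttr stood at 17.5 CPM, within the 8.59 to 24.8 seen in the other types. The 6 genes of tanycytes, the ventral counterpart of ependymal cells, came to 161 CPM and were highest in male replicate 3 (289 CPM). Col25a1 held 270 of their 377 UMIs and Scn7a 97, while Dio2 had 6, Rax and Crym 2 each and Adm none. Col25a1 stood at 115 CPM in ependymal nuclei, below neurons (518 CPM) and fibroblasts (1246 CPM). Scn7a stood at 41.4 CPM in ependymal nuclei and at most 3.18 CPM in any other type. The subcommissural organ list came to 12.0 CPM, with 21 UMIs of Sspo and none of Pax2.

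Nuclei were uneven in how much ciliary RNA they held. The axoneme share was computed over 72 genes. The 5 axoneme lists used below hold fewer members. Those are 15 dynein heavy chains, 10 dynein intermediate and light chains and 16 docking and assembly factors. The other lists hold 17 genes of radial spokes and the central pair and 11 of nexin-dynein links and rulers. The genes of the share beyond these lists are not named here. The 72 genes took 2.95% ± 0.876 of the UMIs of an ependymal sum (n = 9, range 2.27% to 5.07%). Astrocyte sums gave 0.0856% ± 0.00971 (n = 10), and the means of the other types lay between 0.0445% and 0.0850%. Male replicate 1 was highest at 5.07%, and the other 8 sums lay between 2.27% and 3.32%. By depth, the median share per nucleus over 4 equal bins from the fewest to the most UMIs was 1.33%, 2.52%, 3.54% and 3.11%.

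Nuclei with little ciliary RNA were found in 9 of the 10 libraries. In 88 of 469 nuclei the axoneme genes took under 1% of UMIs, and 45 nuclei lay near that value, between 0.8% and 1.2%. Of the 88 nuclei, 43 were among the 133 of male replicate 3, 15 among the 87 of male replicate 4 and 12 among the 39 of female replicate 5, and male replicate 1 had none. Female replicate 5 had 3 nuclei high in neuronal markers. Neuronal markers were above 5000 CPM in 82 nuclei, 47 of them from male replicate 3 and 18 from male replicate 4, and 51 nuclei were in both groups. Together the 88 nuclei held 953 CPM of ependymal markers against 6226 in the other 381, and 9760 of neuronal markers against 1718. Tmem212 was detected in 48 of the 88 and in 335 of the 381. Meg3, a long noncoding RNA abundant in neurons, stood at 7317 CPM in the 88 nuclei and 1267 in the others. These nuclei kept the authors' name and are included in the values given here, and each count of calls was repeated without the 82 nuclei high in neuronal markers.

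**Figure D2:**
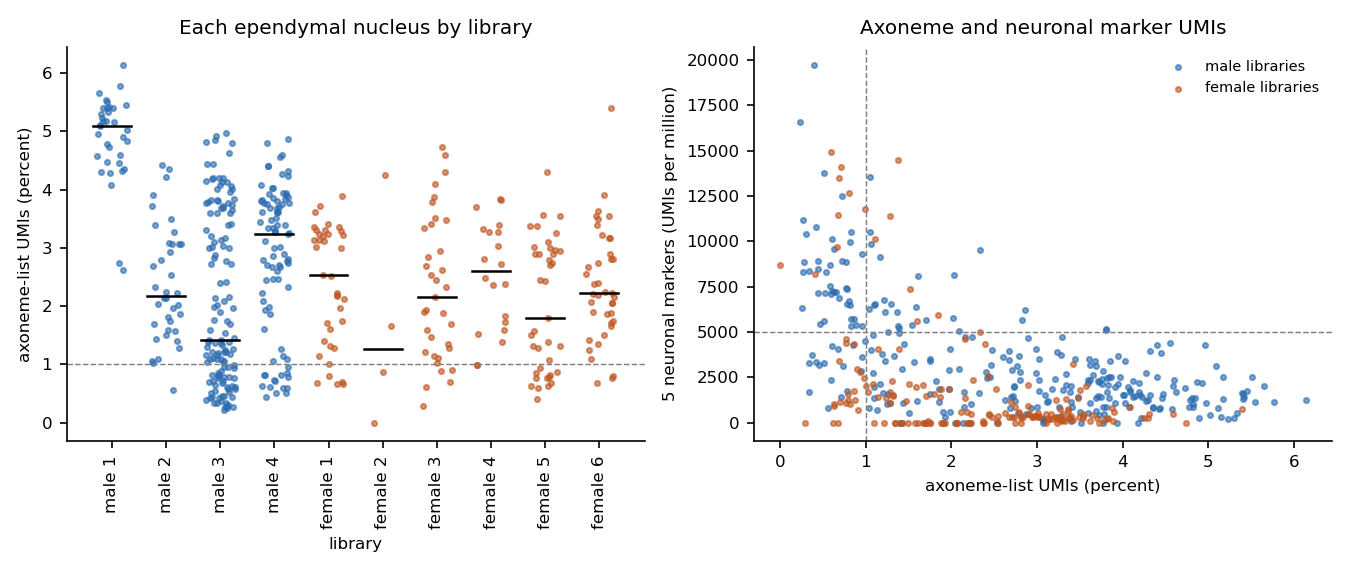
Each point is 1 ependymal nucleus: the percent of its UMIs from the 72 genes of the axoneme share by library (bars are medians, the dashed line is 1%), and the same percent against its CPM from 5 neuronal markers (dashed lines at 1% and 5000). Of the 88 nuclei under 1%, 51 are also above 5000 CPM of neuronal markers.

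Residual variance, the spread between ependymal nuclei beyond counting error, was ranked over the 8206 genes with at least 50 UMIs. The highest genes were in part abundant in neurons. Among the leading 15 these were Kcnip4, Meg3, Lsamp, Snhg11, Rbfox1, Cntnap2, Ptprd, Lrrtm4 and Ntng1. Some were as high or nearly so in glia. In oligodendrocyte precursors Lrrtm4 was at 3054 CPM and Lsamp at 9281, against 3039 and 9761 in neurons. Ptprd was at 5394 CPM in oligodendrocytes and 6517 in neurons. Also among them were Malat1, a nuclear noncoding RNA, Dbi, for the acyl-CoA binding protein, Cmss1, Gm42418 and AY036118. No axoneme gene was in this group.

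To describe which genes set ependymal cells apart, UMIs were summed per library and type, and ependymal sums were compared with the mean of the 7 other types on the log2 scale, and separately with astrocytes (edgeR quasi-likelihood test with library as a term). A gene was called where the adjusted p was below 0.05 and the log2 fold change past 0.5 in either direction. The authors formed the types from the same nuclei, so these fits describe the assignment and are no independent test of it. Of 9842 genes tested, 2630 (26.7%) were higher in ependymal cells than the mean of the other types and 1888 (19.2%) lower. Against astrocytes 2833 (28.8%) were higher and 2371 (24.1%) lower. Calls in either direction came to 4518 (45.9%) and 5204 (52.9%). In all, 1948 genes were higher in both comparisons, 1350 of the genes called higher against the other types were so in every library, and 409 had every ependymal sum above every sum of every other type. Without the 82 nuclei high in neuronal markers, 2588 genes were higher than in the other types, 2441 of them among the 2630, and the count of lower genes was 3076 in place of 1888. Against astrocytes the counts were then 2419 higher and 3015 lower.

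The 15 genes with the highest folds against the other types held 2 members of the axoneme lists, Dnah12, a dynein heavy chain, and Wdr63, a dynein intermediate chain. Also among them were Ak9, an adenylate kinase, Mapk15, a protein kinase, and Crocc2, a relative of the rootlet protein rootletin. Dthd1 led with 595 ± 204 CPM (SD, n = 9) in ependymal sums and at most 3.22 CPM in the mean of any other type, a log2 fold change of 10.02 (SE 0.17). Unc5cl (495 ± 219 CPM, log2 fold change 9.96) and Ccdc180 (549 ± 243 CPM, 9.93) followed, and then C230072F16Rik, Ak9, Lrrc36, Spata18, Wdr63, Fam216b, Dnah12, Crocc2, Ttc29, Zbbx, Gm47888 and Mapk15, with log2 fold changes from 9.69 down to 8.86. In each of these 15 genes no ependymal sum fell as low as the highest sum of another type. Against astrocytes Crocc2 led (log2 fold change 9.34), followed by Dnah12, Cdhr3, a cadherin, Ccdc180, Ttll6, a tubulin glutamylase, Unc5cl, Gm12695, Ttc21a, Gm36033 and Pde6h.

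At the other end stood genes highest in endothelial cells, microglia, fibroblasts or oligodendrocytes. Ramp2, a receptor activity modifying protein of endothelium, Cav1, for caveolin, Gjb2, a gap junction protein, Ptpn18, Arap3, Klhl6, Cd300c2, A830008E24Rik and 1700047M11Rik had no UMI in the ependymal sums. Fxyd5 had 1 UMI. At 0 of 2336568 ependymal UMIs the floor of 3 counts over the group put A830008E24Rik at least 22.3-fold lower than in astrocytes, Gjb2 at least 12.3-fold and Ramp2 at least 12.1-fold. The other genes lowest against astrocytes were Hif3a, a hypoxia-inducible factor (2 ependymal UMIs), Lgi4, Heyl, a Notch target, Cd38, Atp13a4, Gm44257 and Pdgfrb, with fitted log2 fold changes from -6.88 to -5.51 that rest on few ependymal UMIs.

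**Figure D3:**
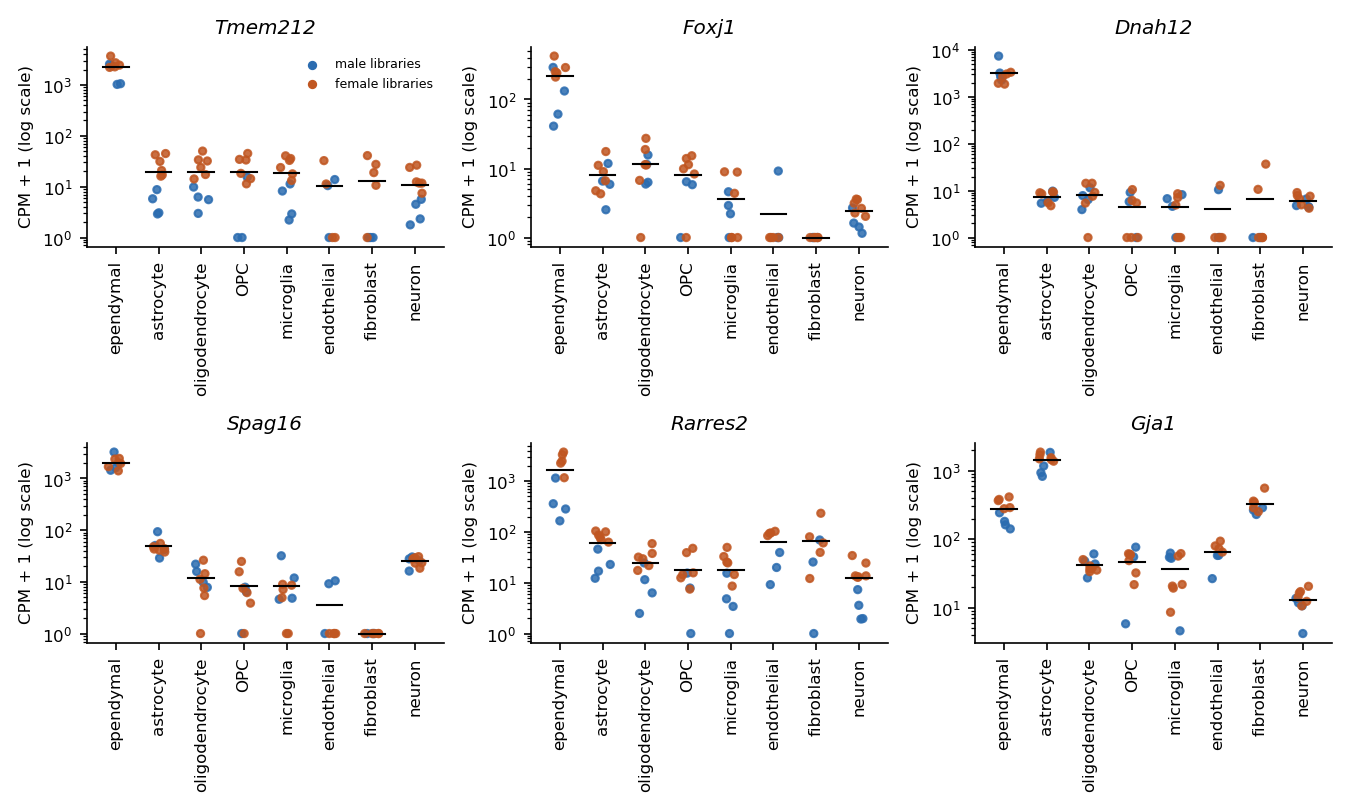
CPM + 1 (log scale) of 6 genes in every summed library of the 8 cell types, each point 1 sum and each line the mean of a type. Tmem212, Foxj1, Dnah12 and Spag16 are higher in every ependymal sum than in any sum of another type, Rarres2 spreads from 164 to 3738 CPM among ependymal sums, and Gja1 is highest in astrocytes.

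The axoneme lists moved as a whole. Of 15 dynein heavy chains, the motor subunits of the dynein arms, 13 were tested and 13 were higher against the other types, with a median log2 fold change of 6.87 beside -0.01 over all genes tested, of which 26.7% were higher. The 10 intermediate and light chains were all higher (median 6.20), as were 12 of 12 tested factors for docking and assembly (6.20), 16 of 16 for radial spokes and the central pair (5.51) and 10 of 10 for the nexin-dynein complex and axonemal rulers (6.39). Against astrocytes the same members were higher, with medians from 5.05 to 7.52 beside 0.02 over all genes, of which 28.8% were higher. Genes low in every type were not tested, so a tested member that is detected through ependymal cells alone had to differ. The members not tested were 2 heavy chains, 4 docking and assembly factors, 1 spoke gene and 1 nexin-dynein gene.

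**Figure D4:**
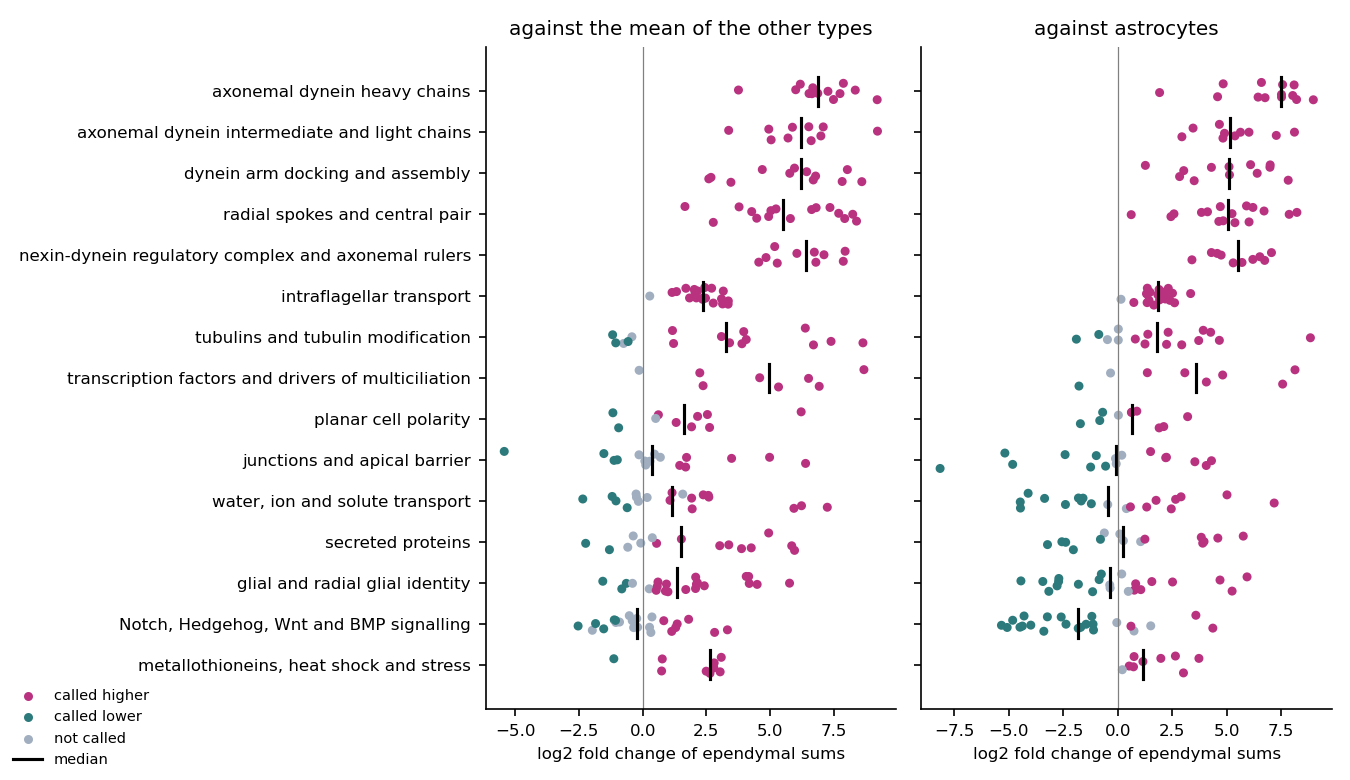
Log2 fold change of ependymal sums against the mean of the other types (left) and against astrocytes (right) for each tested member of 15 gene lists, coloured by call, with the median of each list as a black bar. The 5 axoneme lists lie above 0 throughout, with medians from 5.05 to 7.52, while signalling genes lie mostly below 0 against astrocytes, with a median of -1.81.

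Dnah12, an inner arm heavy chain, was at 7397, 2689, 2279 and 3215 CPM in the male libraries and 1865, 3338, 1945, 2722 and 3070 CPM in the female libraries. Male replicate 1 was far above the others, and the other sums overlapped between the sexes. The log2 fold change was 9.20 (SE 0.13) against the other types and 8.99 (SE 0.23) against astrocytes. A UMI was found in 80.4% of all 469 ependymal nuclei. Among the 384 deep enough to be thinned, which are not the same denominator, the thinned share was 80.5%, against at most 1.26% in the other types. Dnah7b was the heavy chain with the smallest fold, since astrocytes also held it, at 160 ± 42.7 CPM (n = 10) against 648 ± 358 CPM in ependymal sums (log2 fold change 1.92).

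Spag16, a protein of the central pair, was at 3241, 2006, 1442 and 1612 CPM in the male libraries and 1402, 2443, 1691, 1949 and 2370 CPM in the female libraries. Its sums overlapped between the sexes, and male replicate 1 was again highest. The log2 fold changes were 8.39 (SE 0.14) and, against astrocytes, 5.39 (SE 0.18). Hydin, also of the central pair, was at 1356 ± 596 CPM (log2 fold change 7.93). The spoke gene Rsph3a was least changed (44.7 ± 13.6 CPM, log2 fold change 1.66), with 31.3 ± 18.2 CPM in astrocytes.

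Promoter windows of the axoneme genes called higher were searched on both strands for the X-box bound by RFX factors (the half-sites GTTNCC and GGNAAC with NN between them) and for a forkhead sequence (GTAAACA), motifs that do not overlap in their letters. RefSeq windows, from 250 bases before to 50 after each start, were matched for 46 of 61 such genes, with 47 windows. The X-box was in 2 of the 47 (4.255%) and in 148 of the 32851 windows searched (0.4505%). The forkhead sequence was in none of the 47 (0%) and in 1199 of the windows searched (3.65%). The windows searched did not cover the whole genome. The 2 X-box matches are shown in capitals, each with 8 bases on either side, 5′ to 3′ on the strand of the gene. That of Ccdc151, a docking factor, is at chr9:22002647-22002676 inside the annotated span of the gene, and that of 1110004E09Rik, an assembly factor named Cfap298 in RefSeq, at chr16:90935016-90935045 upstream of it, both on the minus strand (GRCm38.p6).
Ccdc151: cgcgggcgGTTTCCTTGGGAACgtgggcgg
1110004E09Rik: gggttttgGTTGCCCGGGCAACagctactt

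Ccdc151 was at 114 ± 19.4 CPM in ependymal sums and 5.89 ± 2.49 CPM in astrocytes (log2 fold change 4.31). 1110004E09Rik was at 0 in the 4 male sums and at 123, 140, 165, 279 and 159 CPM in the female sums. The gene has UMIs under the symbol Cfap298 in the male set (856 over all nuclei, and 665 under the older symbol in the female set), so the 0 belongs to the symbol and not to the gene, and no difference between the sexes is given for it.

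Genes of intraflagellar transport, which carry cargo along primary and motile cilia alike, were higher by less. Of 21 members 20 were tested and 19 were higher (median log2 fold change 2.35, and 1.87 against astrocytes), and Ttc21b was not called (log2 fold change 0.28, SE 0.22). Ift88 stood at 413 ± 156 CPM, with 89.2 CPM in neurons, the next highest type (log2 fold change 3.36). Every tested member except Ttc21b was thus higher against the other types, beside 26.7% of all genes tested (28.8% against astrocytes), and none was lower.

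Of 20 tubulins and enzymes that modify them 16 were tested, 11 were higher and 3 lower (median log2 fold change 3.25), beside 26.7% and 19.2% of all genes tested. Ttll6, which adds glutamates to tubulin of the axoneme, was at 224 ± 182 CPM and at most 2.62 CPM in the mean of any other type (log2 fold change 8.64). Agbl4, a deglutamylase that neurons also use, was at 2613 ± 885 CPM against 1301 CPM in neurons (log2 fold change 3.89 against the mean of all other types). The lower members were Tubb4a, the beta tubulin abundant in oligodendrocytes (30.9 ± 26.7 CPM, with 1166 CPM there), Ttll7 (log2 fold change -1.18) and Tubb5, near the threshold at -0.57.

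Transcription factors and drivers of multiciliation were few in UMIs, and 8 of 17 were tested. Of these, 7 were higher against the other types (median log2 fold change 4.96), beside 26.7% of all genes tested. Foxj1, the master factor of motile cilia, was at 132, 290, 60.3 and 40.1 CPM in the male libraries and 252, 210, 289, 424 and 241 CPM in the female libraries. Male replicates 1, 3 and 4 were below every female library, and male replicate 2 lay among the female libraries. The log2 fold change was 6.51 (SE 0.23), and the difference between the sexes was not called (adjusted p = 0.143, edgeR quasi-likelihood test). Myb, a cell cycle factor used in multiciliation, was at 160 ± 66.9 CPM (log2 fold change 6.93), Trp73, a member of the p53 family, at 119 ± 68.8 CPM (8.68) and Rfx2 at 254 ± 125 CPM (5.33). Rfx3 was higher in both comparisons (2.24, and 1.36 against astrocytes). Rfx4 was higher than the mean of the other types but lower than in astrocytes (156 ± 52.5 against 540 ± 161 CPM, log2 fold change -1.78, lower in 9 of 9 libraries). Mcidas, an early inducer of multiciliation, had no UMI in the ependymal sums, and Gmnc, its relative, was at 37.1 ± 14 CPM and was not tested.

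Ependymal cells are polarised epithelium, and genes of planar cell polarity and of the apical surface were looked at next. Of 15 polarity genes 10 were tested, 7 were higher and 2 lower (median log2 fold change 1.62), beside 26.7% and 19.2% of all genes tested. Celsr1, a polarity cadherin, was at 128 ± 53.4 CPM (log2 fold change 6.22) and the receptor Fzd3 at 328 ± 128 CPM (2.63), while Vangl2 (10.9 ± 8.36 CPM, -0.94) and Prickle1 (-1.17) were lower. Of 21 genes of junctions and the apical barrier 16 were tested, 6 were higher and 4 lower (median log2 fold change 0.37), beside 26.7% and 19.2% of all genes tested, so the list as a whole lay near the background. Crb2, of the apical Crumbs complex, was at 144 ± 53.4 CPM (log2 fold change 6.39), and Ezr, which links actin to the membrane of microvilli, at 400 ± 222 CPM (4.98). Ocln, for the tight junction protein occludin, was at 117 ± 46.8 CPM, below endothelial cells (228 CPM) and above astrocytes (log2 fold change 4.31). Tjp1, its cytoplasmic partner, was lower than the mean of the other types (-1.52).

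Against astrocytes 6 of the 16 junction genes tested were higher and 7 lower (median log2 fold change -0.08), beside 28.8% and 24.1% of all genes. Gja1, for connexin 43, was at 161, 242, 181 and 140 CPM in the male libraries and 277, 412, 379, 288 and 365 CPM in the female libraries, and at 1418 ± 356 CPM in astrocytes (n = 10). Ependymal sums were below the astrocyte sum of the same library in 9 of 9 libraries (log2 fold change -2.42, SE 0.20), and because most other types held little Gja1 the fold against their mean was 1.72. Gjb6, for connexin 30, was at 11.3 ± 9.08 CPM against 459 ± 159 CPM (-5.18), and the claudin gene Cldn10 at 12.4 ± 9.97 against 463 ± 176 CPM (-4.83).

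Genes of water, ion and solute transport were listed next. Of 22 members 19 were tested, and against astrocytes 8 were higher and 9 lower (median log2 fold change -0.46), while against the other types 10 were higher and 4 lower (1.15). Over all genes tested 28.8% were higher and 24.1% lower against astrocytes, and 26.7% and 19.2% against the other types. Aqp4, the water channel of glia that face fluid, was at 247 ± 114 CPM against 739 ± 172 CPM in astrocytes (log2 fold change -1.59). Slc4a4, a bicarbonate transporter, was at 189 ± 69.6 against 4179 ± 597 CPM (-4.48). Car9, a carbonic anhydrase at the cell surface, was at 84.4 ± 39.7 CPM and at most 1.57 CPM in the mean of another type (log2 fold change 7.24), and Scnn1a, a subunit of the epithelial sodium channel, at 79.9 ± 41.9 CPM (6.23). The urea transporter gene Slc14a2 (120 ± 39.5 CPM, 5.93) and the glucose transporter gene Slc2a1 (299 ± 140 CPM, 2.60) were also higher, the second below the 904 CPM of endothelial cells.

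Of 17 genes for secreted proteins 15 were tested, 9 were higher against the other types and 2 lower (median log2 fold change 1.52), beside 26.7% and 19.2% of all genes tested. Against astrocytes 6 were higher and 5 lower, beside 28.8% and 24.1% of all genes. Rarres2, for the chemoattractant chemerin, was at 358, 1151, 282 and 164 CPM in the male libraries and 3329, 1167, 2479, 3738 and 2264 CPM in the female libraries. Male replicate 2 lay just below female replicate 3, and male replicates 1, 3 and 4 were far below (log2 fold change against the other types 5.85). Scaled among the ependymal sums alone, male replicate 2 (1293 CPM) lay above female replicate 3 (1222 CPM), so the sexes overlapped. Pltp, a phospholipid transfer protein, was at 1176 ± 520 CPM, close to endothelial cells at 1153 CPM and above astrocytes (3.97). Clu, for the chaperone clusterin, was at 1632 ± 891 CPM and not called against astrocytes at 1290 ± 398 CPM (log2 fold change 0.26, SE 0.17). Apoe, the main lipid carrier of astrocytes, was lower than there (2085 ± 1376 against 11407 ± 4568 CPM, -2.57), as was the growth factor gene Ptn (-2.39).

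Of 23 glial identity genes 22 were tested, and 17 were higher and 3 lower than the mean of the other types, beside 26.7% and 19.2% of all genes tested. Against astrocytes 8 were higher and 10 lower (median log2 fold change -0.36), beside 28.8% and 24.1%. Vim, for the filament protein vimentin, was at 430 ± 318 CPM (4.70 against astrocytes), Nes, for nestin, at 34.4 ± 18.9 CPM (5.26), Cd24a, a surface protein of ependymal cells, at 220 ± 144 CPM (5.94) and S100b, a calcium-binding protein, at 407 ± 237 CPM (1.57). Sox9, a glial transcription factor, was higher by 0.83 (SE 0.21), in 7 of 9 libraries. Slc1a3, the glutamate transporter GLAST, was lower in 9 of 9 libraries (148 ± 49.9 against 3264 ± 542 CPM, -4.45). Gfap, the filament gene of reactive and white matter astrocytes, was at 9.38 ± 8.68 CPM and was not tested.

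Signalling genes were the list most often below astrocytes. Of 28 genes of Notch, Hedgehog, Wnt and BMP signalling 23 were tested, and 17 were lower than in astrocytes and 3 higher (median log2 fold change -1.81 beside 0.02 over all genes), beside 24.1% and 28.8% of all genes tested. The Notch target Hes5 was at 9.26 ± 5.77 against 314 ± 166 CPM (-5.08), and the Hedgehog targets Gli1 and Ptch1 at 1.69 ± 2.58 against 95.9 ± 23.4 CPM (-5.34) and at 112 ± 60.6 against 1685 ± 237 CPM (-3.99). Each was lower in 9 of 9 libraries. The ligand genes Wnt4 (147 ± 60.5 CPM, log2 fold change 3.59) and Bmp6 (124 ± 81.7 CPM, 4.37) were higher than in astrocytes, and fibroblasts held more Bmp6 (633 CPM). Over all 10372 genes compared, the mean ependymal profile was most like that of astrocytes among the 7 types (Pearson r = 0.672, across genes, which share libraries and are not replicates) and least like that of microglia (0.551).

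Over the 15 lists together, 219 of 265 members were tested. Against the other types 162 were higher and 24 lower, with a median log2 fold change of 2.58, and 81 were above every sum of every other type, beside 26.7%, 19.2% and 409 of the 9842 genes tested. Against astrocytes 142 were higher and 54 lower, with a median of 1.90, beside 28.8% and 24.1% of all genes.

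Levels within ependymal cells differed between libraries in a way that cut across the sexes. Dbi, among the genes of highest residual variance, was at 337, 5141, 537 and 269 CPM in the male libraries and 6504, 5074, 6684, 9243 and 6422 CPM in the female libraries. Male replicates 1, 3 and 4 were low, and male replicate 2 lay among the female libraries. The metallothionein gene Mt1, whose product binds zinc and copper, was at 102, 2538, 360 and 88.2 CPM in the male libraries and 2384, 2062, 2359, 4383 and 2129 CPM in the female libraries, with the same 3 libraries low. Mt3 was at 73.2, 1758, 424 and 152 CPM and at 1644, 1136, 1566, 3107 and 1682 CPM, again with male replicate 2 among the female libraries.

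The beta tubulin gene Tubb4b, a main tubulin of motile cilia, was at 95.1, 704, 218 and 120 CPM in the male libraries and 1305, 872, 1137, 1576 and 1517 CPM in the female libraries. Vim was at 65.8, 505, 66.2 and 36.1 CPM and at 627, 319, 873, 728 and 647 CPM. In both genes male replicates 1, 3 and 4 were lowest. Male replicate 2 lay among the female libraries for Vim. For Tubb4b it was below all of them (704 against 872 CPM or more), so the sexes did not overlap in this gene. Hsp90aa1, a heat shock protein, was highest in male replicate 2 (4641 CPM), with 534, 922 and 561 CPM in the other male libraries and 1035 to 2304 CPM in the female libraries. The heavy chain Dnah12 and the central pair gene Hydin did not have this order. The deposited mitochondrial median of ependymal nuclei had it in part: 1.47%, 1.64% and 2.45% in male replicates 1, 3 and 4, 3.63% in male replicate 2 and 2.65% to 3.92% in the female libraries. These genes were picked after their values were seen, and the part of mitochondrial content in the result was not tested. Of 12 metallothionein, heat shock and stress genes 9 were tested, and 8 were higher and 1 lower than the mean of the other types (median log2 fold change 2.64), beside 26.7% and 19.2% of all genes tested.

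The 9 ependymal sums were compared between the sexes, female minus male, with the sets of libraries as the groups (edgeR quasi-likelihood test, adjusted p under 0.05). Of 4851 genes tested 433 were called (8.93%), 268 higher in the female (5.52%) and 165 in the male libraries (3.4%), but 186 of them failed a filter for genes counted alike in both sets. Of these 186 genes, 156 had fewer than 20 UMIs in a set over all nuclei, and the other 30 had a log2 ratio of 3 or more in size between the sets over all nuclei, a criterion that the difference itself can meet. Among the 4658 genes that passed, called counted in both sets from here on, 247 were called (5.3%): 177 (3.8%) were higher in the female libraries and 70 (1.5%) in the male libraries, and the median log2 fold change of these genes was -0.11. Fitted on their own, the 4658 genes gave 125 calls, 93 higher in the female and 32 in the male libraries. In place of 433, the count over all genes tested was 1151 without male replicate 2, 273 without female replicate 5 and 283 without female replicate 4. Of the 82 nuclei high in neuronal markers 47 were in male replicate 3 and 18 in male replicate 4, and without the 82 nuclei 782 genes were called. Sex, set and annotation cannot be told apart in these calls, except where a 0 in a set belongs to the symbol. Among called list members this holds for 1110004E09Rik (above) and for 1500015O10Rik and Cfap300 (below). The depth of ependymal nuclei overlapped between the sets. Library medians averaged 3170 ± 3096 UMIs in the female (n = 6) and 2938 ± 1211 in the male libraries (n = 4). The part of depth in the calls was not tested on its own.

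Of 170 list members counted in both sets and tested between them, 14 were higher in the female libraries and 1 in the male libraries, beside 3.8% and 1.5% of all such genes. The member higher in the male libraries was Mia, a secreted protein first found in melanoma (log2 fold change -2.68, adjusted p = 0.0224). Those higher in the female libraries included the assembly factor gene Zmynd10 (169 against 71.1 CPM, log2 fold change 1.35, adjusted p = 0.0148), the spoke head gene Rsph4a (438 against 199 CPM, 1.21, adjusted p = 0.0203) and the nexin-dynein gene Iqcg (451 against 150.1 CPM, 1.64, adjusted p = 0.0148). For Iqcg the male libraries were at 154, 285, 85.6 and 76.2 CPM and the female libraries at 411, 467, 409, 546 and 423 CPM, with no overlap and male replicate 2 nearest to the female libraries. Also called were Rsph1, Ift27, Tubb4b, Tppp3, Gja1, Aqp4, Slc16a1, Apoe, Sox2, Jun and Cdkn1a. A further 5 called members failed the filter for both sets. Rarres2 was among them for its ratio alone, with 449 UMIs in male and 2913 in female ependymal sums (log2 fold change 2.43, adjusted p = 0.0166). The other 4, 1110004E09Rik, 1500015O10Rik, Cfap300 and Tuba1a, had at most 2 UMIs in a set over all nuclei. The gene of 1500015O10Rik (1664 UMIs in the female set) has 515 UMIs as Ecrg4 in the male set. That of Cfap300 (3114 UMIs in the male set) has 1068 UMIs as 9230110C19Rik in the female set. For these 2 genes no difference between the sexes is given. Of the 13 dynein heavy chains tested none was called (median log2 fold change -0.44), and Tmem212 was not called either (0.66, adjusted p = 0.207).

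The genes with the smallest p in each direction did not overlap between the sexes. On the CPM scale of the ependymal sums alone, 4933434E20Rik was at 59.9, 84.6, 56.9 and 69.7 in the male libraries and 910, 660, 1131, 1394 and 965 in the female libraries (log2 fold change 3.90, SE 0.31, adjusted p = 4.5e-06). Male replicate 2 was with the other male libraries here. Ssh2, a phosphatase that activates the actin-severing protein cofilin, was at 33.3, 109, 143 and 187 CPM in the male libraries and 1712, 766, 1446, 2229 and 1536 CPM in the female libraries (3.67, adjusted p = 0.00011). Others of this direction were Wdr89, Acadl, an acyl-CoA dehydrogenase, Rrm2b, a ribonucleotide reductase subunit, Cnot6, a deadenylase, Gm3448, Gm10563 and Twf1, an actin-binding protein, with log2 fold changes from 2.25 to 5.49. Acadl was not particular to ependymal sums in this. On the CPM scale shared by all types it was also higher in every female than in every male sum of neurons (26.9 to 41.8 against 3.05 to 3.52 CPM) and of microglia (160 to 263 against 0 to 32.4 CPM).

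In the opposite direction Slc35f3, a putative thiamine transporter, was at 659, 387, 435 and 362 CPM in the male libraries and 107, 32.6, 32.6, 20.4 and 50.8 CPM in the female libraries (log2 fold change -3.24, adjusted p = 0.000129). T2 was at 2010, 876, 976 and 662 CPM and at 170, 375, 256, 283 and 165 CPM (-2.18, adjusted p = 0.00143). The groups did not overlap in either gene. On the CPM scale shared by all types, Slc35f3 was also higher in every male neuron sum (332 to 821 CPM) than in every female one (175 to 213 CPM). T2 was also higher in the male sums of other types, at 7.74 to 14.3 against 0 to 3.02 CPM in astrocytes and 41.2 to 89.2 against 4.46 to 23.1 CPM in oligodendrocytes. Prr14l, Smim14, Tnrc6a, of RNA silencing, Bicral, Nav2, 1810020O05Rik and Ppip5k1, an inositol phosphate kinase, were also higher in the male libraries, with log2 fold changes from -2.53 to -1.35.

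**Figure D5:**
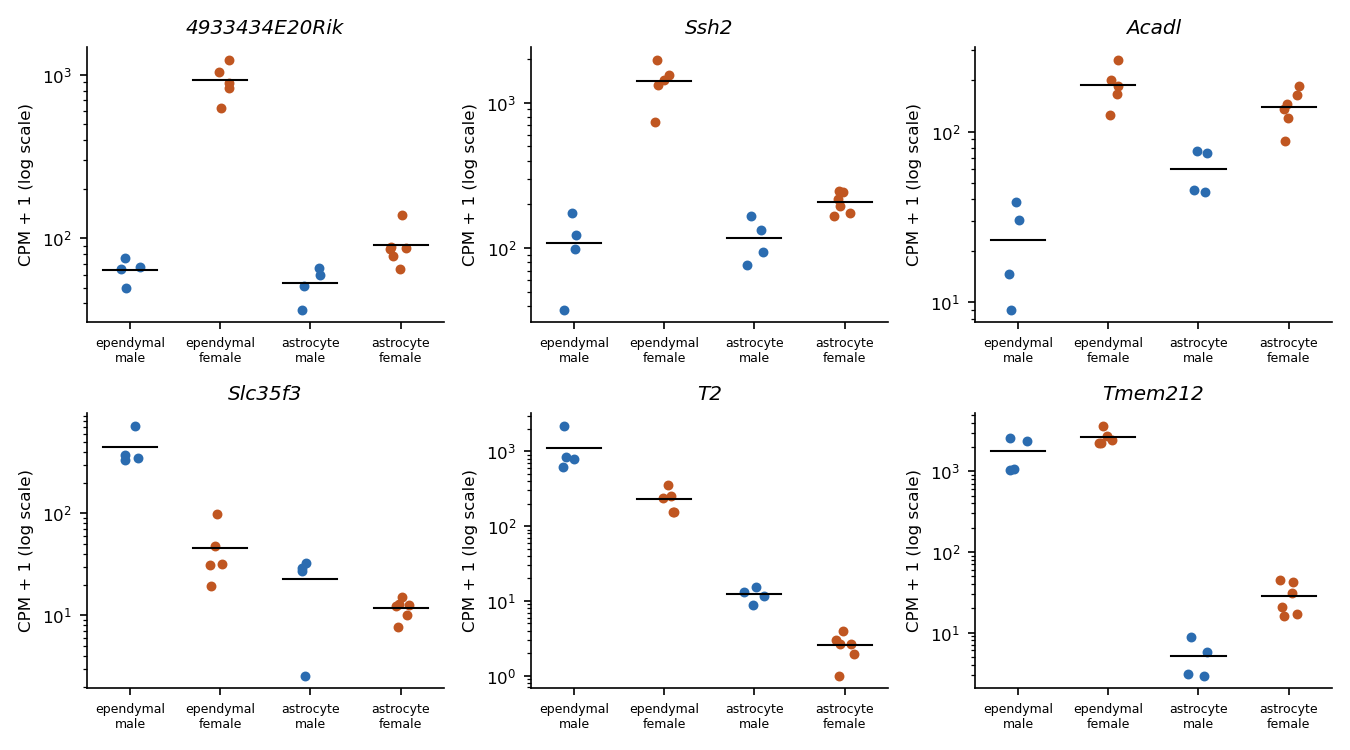
CPM + 1 (log scale) of 6 genes in ependymal and astrocyte sums of the male and female libraries, each point 1 sum and each line a group mean. 4933434E20Rik, Ssh2 and Acadl separate the sexes more widely in ependymal than in astrocyte sums (neuron and microglia sums, in which Acadl also separates them, are not drawn), and Tmem212 differs more in astrocyte sums (27.7 against 4.12 CPM) than in ependymal sums.

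Whether the difference between the sexes was the same in astrocytes was tested as an interaction (edgeR quasi-likelihood test, adjusted p under 0.05). Of 11596 genes 83 were called (0.716%), and of 10888 genes counted in both sets 76 (0.698%). The count of 83 came to 17 without male replicate 3, 243 without male replicate 2, 89 without nuclei high in neuronal markers and 20 with nuclei thinned to 1000 UMIs. The 76 were 47 with a more positive difference in ependymal cells (0.432%) and 29 with a more negative one (0.266%). This balance depended on the setting. Over all genes tested 48 were more positive and 35 more negative, against 31 and 46 with DESeq2. Without male replicate 2 these were 162 and 81. Fitted on their own, the genes counted in both sets gave 29 and 31. Ssh2 was at 1404 ± 452 and 107 ± 56.5 CPM in female and male ependymal sums and at 206 ± 34.7 and 116 ± 39.9 CPM in astrocyte sums (log2 difference of the differences 2.81, adjusted p = 2.3e-08). 4933434E20Rik was at 926 ± 229 and 63.5 ± 11 CPM against 89.6 ± 25.4 and 52.3 ± 12.6 CPM in astrocytes (3.27, adjusted p = 1.52e-13). In both genes the difference between the sexes was larger in ependymal cells.

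Spag6l and Tmem212 were among the 10 genes with the smallest p and a more negative difference in ependymal cells. Spag6l, a central pair protein, was at 591 ± 123 and 556 ± 265 CPM in female and male ependymal sums and at 54.3 ± 13.1 and 2.66 ± 0.90 CPM in astrocyte sums (-3.92, adjusted p = 6.01e-12). Tmem212 was at 2666 ± 606 and 1758 ± 833 CPM in ependymal sums and at 27.7 ± 12.7 and 4.12 ± 2.75 CPM in astrocyte sums (-2.18, adjusted p = 0.00346). Tmem212 was also higher in the female sums of other types, at 6.42 to 25.5 CPM against 0.774 to 4.63 CPM in male neuron sums and 13.2 to 49.1 against 1.98 to 8.82 CPM in male oligodendrocyte sums, with no overlap in either type. The source of these UMIs was not tested.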

How the data were processed

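Single nuclei of the PVT and surrounding tissue were profiled with 10x Genomics 3' libraries. Per the submitters' processing notes the authors used Cell Ranger 6.1.1 and the genome build mm10; the study's methods name an earlier version, and which was used for which set is not given. They deposited raw UMI counts per gene symbol and nucleus, without normalization, and the percent of mitochondrial UMIs, library, sex and cell type of each nucleus. The authors removed nuclei with few genes or a high mitochondrial percent, clusters they took for doublets, and no further doublet call was made here. The 13 mitochondrial genes had no UMI in the male libraries in the deposited counts, so the deposited percent was used. A further 21 columns of the table of nuclei were not used. Over whole libraries the depth was 7568267 to 55956635 UMIs in the male and 5119927 to 12891409 UMIs in the female set; precision is set by the ependymal sums given above, and floors cover counting error only.

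Counts were summed per library and cell type, leaving out sums of fewer than 10 nuclei, and fitted with edgeR 4.0.16 (R 4.3.3; TMM, filterByExpr, quasi-likelihood test, Benjamini-Hochberg adjustment over all genes tested). The library was a term in the comparisons of types. Standard errors were taken from the log2 fold change and its F value. The replicate was the library, a pool of mice, so p-values measure the spread between pools. On simulated data the fit of types recovered 81.6% of genes changed by 1 on the log2 scale, and the fit of sets 32%. The simulated libraries differed only in size, all genes had the same spread, and only well-counted genes were changed. The rates therefore hold for that setting and not for the real sums. A gene was taken as counted in both sets with at least 20 UMIs in each and a log2 ratio under 3 in size. Shares and medians were compared with exact permutation tests (scipy 1.17.1), and alternatives included DESeq2 1.42.0.

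Named were Tmem212, list members highest in ependymal cells or opposite to their list, the 15 highest and 10 lowest log2 fold changes at 20 CPM or more that held in every library (10 each against astrocytes), the 10 smallest p in each direction between the sets and for the interaction, and the 15 genes of highest residual variance. Some genes that this rule names are not reported here. The members and lists were chosen with earlier results of these data known.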

Additional observations from a re-analysis of the deposited data

Results flagged for a closer look

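Single libraries stood apart from the others of their sex in 6 of 40 sets of values looked at. The rate of about 1 in 20 by chance does not apply to marker lists with few UMIs, so the 6 are not set against it. All ependymal nuclei together held 19 endothelial, 28 subcommissural organ and 5 pericyte marker UMIs. Female replicate 4 had a median of 9108.5 UMIs per ependymal nucleus, with the nearest female library at 3234.5. Astrocyte markers were lowest in female replicate 2, which has 4 ependymal nuclei, at 185.8 CPM of the pooled nuclei, with the next at 705.6. Endothelial markers were highest in female replicate 1 at 24.7 CPM (next 4.50). Pericyte markers were at 7.51 CPM in male replicate 3 and 4.94 in female replicate 1 and at 0 in all other libraries of their sex. Where every other library is at 0 any UMI sets a library apart, so nothing is read from these flags. Subcommissural organ markers were at 54.5 CPM in female replicate 3 (next 13.2).

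The difference between female and male libraries differed between ependymal and astrocyte sums by the edgeR quasi-likelihood test of the interaction for the genes that follow. It was more positive in ependymal sums for 4933434E20Rik (log2 difference 3.27), Ssh2 (2.81), Pgm1 (3.07), Slc14a2 (2.63), Sft2d1 (2.35), Acadl (2.00), Cetn4 (2.11), Sf3b2 (1.13) and Arhgdig (1.87). It was more negative for Spag6l (-3.92), Endog (-2.30), Gm15489 (-1.88), Pgm2 (-3.09), Tmem212 (-2.18), Camk2n1 (-1.41), Cfap46 (-1.56), Mblac2 (-2.03), Pnmal1 (-2.31) and Lrrc36 (-2.41). Pgm1 was in astrocytes at 130 ± 27.0 CPM in male and 11.5 ± 2.54 CPM in female sums, against 34.7 ± 9.67 and 27.6 ± 10.8 CPM in ependymal sums. Pgm2 was in astrocytes at 11.9 ± 6.47 CPM in male and 131 ± 30.3 CPM in female sums. The astrocyte sums thus held the same pair of levels under both symbols with the sets exchanged. Both are symbols of phosphoglucomutase genes, the sets differ in their gene annotation, and whether the symbols or the genes differ between the sets cannot be told apart. Without male replicate 3 the interaction was called for 17 genes in place of 83.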

How the results depend on the processing

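No gene named for its rank or p changed direction under any alternative that could be fitted: against astrocytes 434 repeats kept their call, against the other types 524 kept it and 41 lost it, between the sets 394 and 6, and for the interaction 366 and 31. Counts moved more. The 2630 genes higher than the other types became 4628 without the filter on low counts, 1006 with nuclei under 1% mitochondrial and 963 with nuclei thinned to 1000 UMIs. The 1888 lower genes became 214 under 1% mitochondrial, 684 thinned, 949 in male libraries alone and 3076 without nuclei high in neuronal markers, an alternative chosen after seeing the data. Against astrocytes the 2833 higher genes became 1336 under 1% mitochondrial and 982 thinned, and the 2371 lower genes 4240 unfiltered, 1231 under 1% mitochondrial and 1222 thinned. These alternatives use fewer nuclei, fewer UMIs or more genes; other causes were not tested. With DESeq2's size factors the median of all genes against astrocytes moved from 0.02 to 0.16 on the log2 scale, and the calls were 3251 higher and 1967 lower; against the other types they were 2889 and 1513.

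Leaving out each library in turn gave 2438 to 2742 higher and 1603 to 2054 lower genes against the other types, and 2614 to 2926 and 2184 to 2639 against astrocytes. It gave 273 to 1151 calls between the sets, with the lowest counts without female replicates 5 (273) and 4 (283). For the interaction it gave 17 to 243 calls: 243 without male replicate 2, 17 and 33 without male replicates 3 and 4, and 53, 39 and 41 without female replicates 4, 5 and 6. Female minus male was -1.53 to -0.469 percentage points for the ependymal share and -956 to 753 UMIs for the median depth, which reversed its sign to -136, -32.1 and -956 without male replicate 2, male replicate 4 and female replicate 4.

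The 433 calls between the sets became 2190 unfiltered, 266 without the 5% of nuclei with the most UMIs, 34 thinned, 782 without nuclei high in neuronal markers and 125 when only genes counted in both sets were fitted. The 83 calls of the interaction became 49 without the nuclei of most UMIs and 20 thinned. Set and interaction could not be fitted for nuclei under 1% mitochondrial. Equal replicate numbers did not pair the libraries: same-numbered ependymal sums had correlations of -0.317 to 0.228 over 3 pairs, and no male library correlated best with its own number. With the replicate block 331 genes differed between the sets, and over 4 pairs the share differed by -1.22 percentage points (exact permutation p = 0.375). Genes with few ependymal UMIs are limited by depth.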
